A study of Mus musculus with 9 samples.

Results

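Cells picked as retinal ganglion cells after optic nerve crush were compared between eyes given a virus for the transcription factor Olig3 and eyes given a virus for green fluorescent protein (GFP), across all genes. The comparison used the 3 libraries labelled Olig3 and the 3 labelled GFP, 6 of the 9 libraries of the series, and 15609 of 50764 genes had enough counts to be tested. The other 3 libraries, from eyes given Olig2, entered the fit and one comparison. All animals were adult male mice of wild-type genotype, every group had a crushed optic nerve, and the labels give 14 days both for the virus and for the crush. The virus was an AAV2, of which 1.5 µL went into the vitreous. Neither its promoter nor the mouse strain was given in the sources used here. Retinal cells bound to CD90.2 (Thy1) beads were searched for GFP fluorescence and picked by hand, and each library held 10 to 20 cells depending on which label is read. Their RNA was copied and amplified over 20 PCR cycles with the SMART-Seq HT kit. Whether replicate libraries derive from different mice is unstated, and p-values therefore measure only how far libraries of a group spread, which may be technical variation. Sample labels naming Olig2 or Olig3 were followed, although the title has Olig1/2.

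Retinal ganglion cells are the output neurons of the retina, and after their axons are cut most of them die and few regrow an axon. Injured ganglion cells switch on stress kinases, AP-1 factors and a set of regeneration-associated genes, and the injured retina raises interferon and antigen presentation genes. Olig3 is a basic helix-loop-helix factor of the developing hindbrain and spinal cord. Such factors bind E-boxes, short DNA sites that read CANNTG, and Olig factors act largely as repressors there. Bipolar cells, rods and cones are the interneurons and light sensors upstream of ganglion cells, and Müller cells are the main retinal glia.

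Olig3 itself had 13, 0 and 40 counts in the 3 GFP libraries and 172, 113 and 597 in the 3 Olig3 libraries, in the order of their replicate numbers. As CPM, counts scaled to library size, here with TMM factors that adjust for library composition, this was 1.95, 0 and 5.36 against 25.4, 28.3 and 87.6. Every Olig3 library was above every GFP library, but the test across all genes did not pass (log2 difference 4.26 ± 1.31 SE, edgeR adjusted p = 0.252). The deposited counts do not tell viral from endogenous Olig3. Olig2 had 0 counts in every GFP library and 6, 4 and 0 in the Olig3 libraries.

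Not every library carried the markers of its labelled cell type. The ganglion cell markers, 22 genes, made up 0.237, 0.116 and 0.156% of counts in the GFP libraries and 0.0282, 0.0397 and 0.0277% in the Olig3 libraries, and the groups did not overlap (exact permutation test, p = 0.1, the smallest that 3 against 3 libraries allow). The vesicular glutamate transporter gene Slc17a6, which marks ganglion cells in the retina, stood at 124.5, 118 and 133 CPM with GFP and 7.96, 27.3 and 0 CPM with Olig3. Rbpms, the RNA-binding protein most used to label ganglion cells, stood at 10.6, 12.4 and 21.3 CPM and 10.6, 7.75 and 0 CPM. In Olig3 replicate 3, Rbpms, Slc17a6, Sncg, Pou4f1 and Thy1, the bead target, all had 0 counts, and 12 of the 22 markers did. Other markers were high in that library. The homeobox genes Isl1 and Isl2 and the transcription factor gene Ebf3 stood at 94.9, 9.24 and 31.5 CPM there, the highest of the 9 libraries. In the GFP libraries 3, 3 and 5 of the 22 were at 0. These markers were picked out after their values were seen. Rod genes made up 5.57, 8.48 and 6.89% of GFP counts and 10.7, 18.02 and 7.29% of Olig3 counts (exact permutation test, p = 0.2). In amplified RNA from a few cells, fewer cells of a type and less RNA per cell cannot be told apart.

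The Olig3 libraries detected fewer genes. Total counts were 5853947 to 6979851 per GFP library and 5355691 to 6438216 per Olig3 library, so depth was nearly equal. Genes with at least 10 counts numbered 14975, 15196 and 14990 with GFP and 12273, 13558 and 11919 with Olig3. Every Olig3 library was below every GFP library, by 2470 genes on average (15054 ± 123 against 12583 ± 862, SD, n = 3 each; two-sided exact permutation test, p = 0.1, the smallest this design allows). At a threshold of 1 count the picture split. Olig3 replicates 1 and 3 detected 16188 and 14434 genes, below the 18425 to 18830 of the GFP libraries, while Olig3 replicate 2 detected 20933, more than any GFP library (exact permutation test, p = 0.5).

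Genes of low level were the ones missed. Among 4647 genes with a mean of 5 to 20 CPM in GFP, 17.2% had 0 counts in Olig3 replicate 1 and 22.3% in replicate 3, against 0.947% in replicate 2 and 1.23% to 2.35% in the GFP libraries. Among 5802 genes at 20 to 100 CPM the shares were 1.71%, 0.0689% and 3.12% in the Olig3 libraries and at most 0.138% with GFP. When tested genes were divided into 3 equal classes by level, the median log2 difference was -0.66 in the lowest class, -0.07 in the middle class and 0.10 in the highest. Olig3 replicate 2 stood apart in another way. Malat1, a nuclear long noncoding RNA, held 8.54% of its counts against 3.03% and 3.12% in Olig3 replicates 1 and 3 and 2.66% to 4.14% with GFP, and rod genes held 18.0%. Shares of this size were otherwise found in Olig2 replicates 2 and 3, and in no GFP library. The part of missed genes in the results for genes of low level was not tested.

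**Figure D1:**
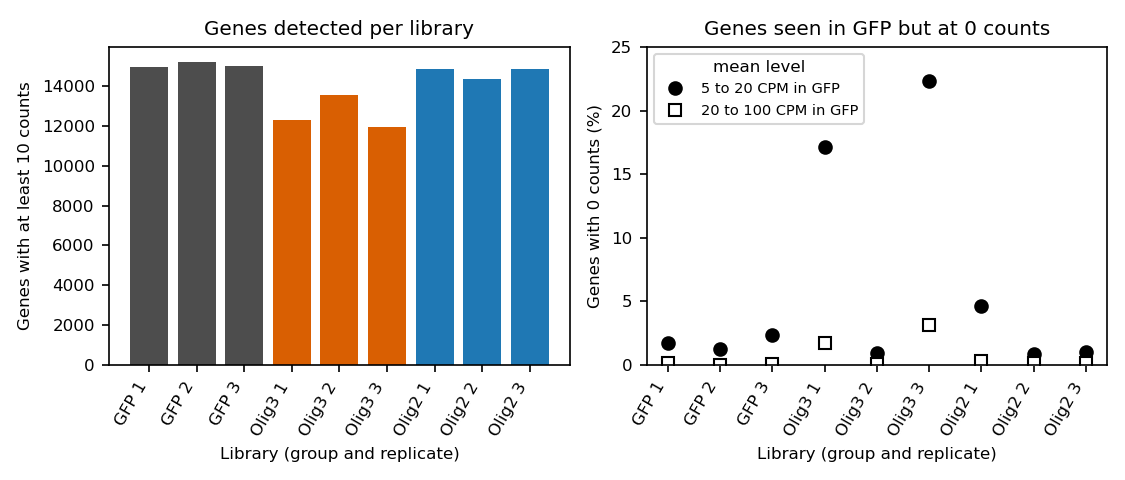
Left, genes with at least 10 counts in each of the 9 libraries. Right, the percentage of genes with 0 counts in each library, for genes whose mean level over the GFP libraries was 5 to 20 CPM (filled) or 20 to 100 CPM (open); Olig3 replicates 1 and 3 lie at 17.2% and 22.3%, and Olig3 replicate 2 at 0.947%.

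Of 15609 genes tested, 32 differed between Olig3 and GFP at an adjusted p below 0.05 (0.205% of the genes tested), by the edgeR quasi-likelihood test over all 9 libraries. The 15 that rose (0.0961%) held genes of bipolar cells, rods and their synapses. The 17 that fell (0.109%) held genes of interferon response, antigen presentation, injury response and glia. All 32 had no overlap between the 3 libraries of each group. Their adjusted p-values lay between 0.0319 and 0.0473, close to the threshold. Leaving out any 1 of the 9 libraries left no gene called lower and at most 2 called higher, except that without Olig3 replicate 2 the counts were 106 higher and 399 lower, with all 32 among them. Under these 9 omissions every 1 of the 32 kept its direction, and the highest adjusted p of any was 0.165. The edgeR fit of only the 6 GFP and Olig3 libraries called none, with 565 genes in each direction at an unadjusted p below 0.05. DESeq2 called 212 genes higher and 281 lower, among them all 32.

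At an unadjusted p below 0.05, 899 genes were higher (5.76%) and 995 lower (6.37%), against 780 expected in all if nothing differed. The 3 Olig3 libraries lay above the 3 GFP libraries for 1120 genes (7.18%) and below them for 1567 (10.0%). The median log2 difference of all tested genes was -0.06. These shares varied with level. At an unadjusted p below 0.05, 631 of the 5203 genes in the highest class of level were higher and 352 lower. In the lowest class, also 5203 genes, these were 81 and 391. Genes without overlap numbered 667 upward and 434 downward in the highest class, and 131 and 627 in the lowest. The gene lists below are read against the shares of all genes, with no matching for level.

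**Figure D2:**
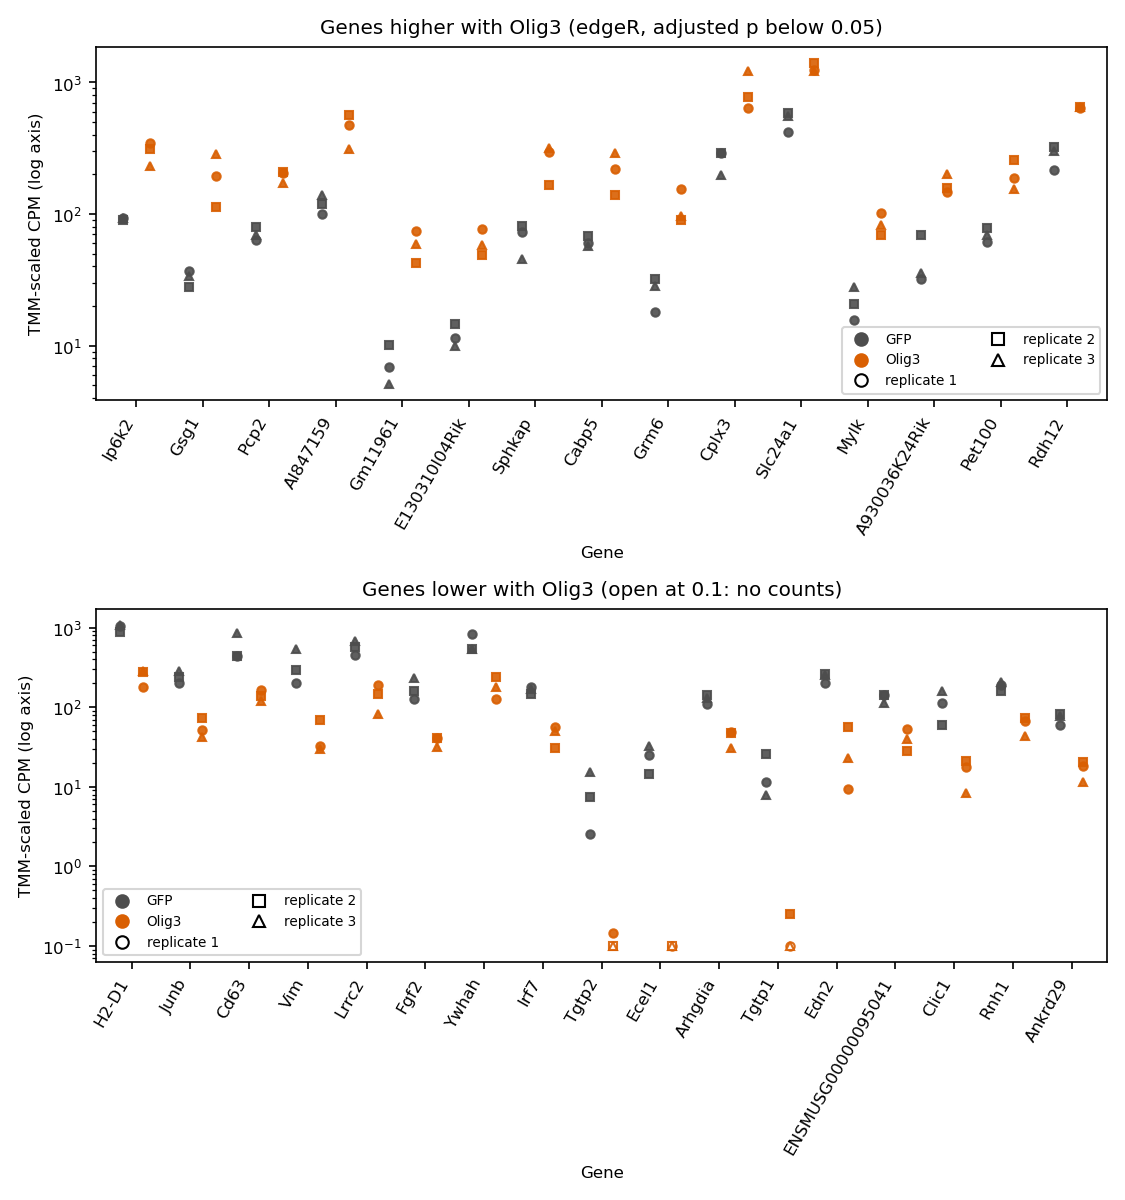
TMM-scaled CPM (log axis) of the 15 genes higher and the 17 genes lower with Olig3, 1 point per library, symbols by replicate number. For each gene the 3 Olig3 points lie on one side of the 3 GFP points; Ecel1 has no counts in any Olig3 library, and Tgtp1 and Tgtp2 have 1 count each in the group.

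Genes of bipolar cells were higher with Olig3, and 3 of them rose. Grm6 (chr11:50850685-50866208), the glutamate receptor through which ON bipolar cells read photoreceptor release, stood at 17.96, 32.1 and 28.5 CPM in the GFP libraries and 156, 89.8 and 97.4 CPM in the Olig3 libraries. That is 4.36-fold higher (log2 change 2.12 ± 0.34 SE, edgeR adjusted p = 0.0363). Cabp5 (chr7:13398132-13408887), a calcium-binding protein of bipolar cells, went from 60.6, 68.2 and 57.4 to 218, 139.6 and 292 CPM, 3.49-fold. In both genes Olig3 replicate 2 was the lowest of its group and still above every GFP library. Pcp2 (chr8:3623371-3625545), a modulator of G proteins in rod bipolar cells, rose from 64.05, 79.6 and 69.8 to 205, 209.8 and 173 CPM, 2.76-fold.

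Pet100, an assembly factor of cytochrome oxidase, also rose, from 61.7, 78.4 and 69.8 to 187, 256 and 154 CPM. Its exons overlap those of Pcp2 on the opposite strand, and whether counting used strand is unstated, so Pet100 and Pcp2 may share reads. Of the 20 bipolar cell genes tested, 3 were called, 11 were higher at an unadjusted p below 0.05 with 0 lower, and 11 had no overlap upward. Their median log2 difference was 1.00, and it stayed between 0.96 and 1.15 with any library left out. Trpm1, the cation channel that Grm6 signalling controls, stood at 253, 280.2 and 272 CPM and 574, 433 and 448 CPM (log2 difference 0.85, edgeR adjusted p = 0.183). The summed level of the list was 1229, 1128.5 and 1137 CPM with GFP and 2489.5, 1932 and 2260.5 CPM with Olig3, 1.91-fold apart and not overlapping.

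The synapses of photoreceptors and bipolar cells are built around ribbons that hold vesicles ready for release. Cplx3 (chr9:57599992-57606281), the complexin of ribbon synapses, rose from 289.7, 293 and 199 to 639, 771 and 1214 CPM, 3.36-fold (log2 change 1.75 ± 0.29 SE, edgeR adjusted p = 0.0363). It was the only called gene among 35 tested synapse genes, of which 7 were higher and 1 lower by unadjusted p below 0.05. Unc13b, a vesicle priming factor, stood at 147, 102 and 112 CPM with GFP and 307, 249 and 239 CPM with Olig3, and Rims2, an active zone scaffold, at 142, 126 and 127 CPM and 227, 265 and 336 CPM. Neither passed (edgeR adjusted p = 0.0724 and 0.0839). Snap25, the release protein of all neurons, overlapped between the groups at 3136, 3141 and 1145 CPM and 2145, 2093 and 1761 CPM. The median of the synapse list was 0.25, near that of all genes. Of the 35 genes, 6 had no overlap upward and 1 downward, against 7.18% and 10.0% of all tested genes.

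The 250 bases before the start and the first 50 transcribed bases were searched on both strands for short motifs, for 14 of the 15 genes that rose and 15 of the 17 that fell, in RefSeq windows of build GRCm38.p6 (mm10). Some genes have several starts, so these were 20 and 18 windows. The E-box CANNTG was present in 15 of the 20 and 11 of the 18 windows, against 72.3% of all 32851 windows. Its form CATATG, which Olig factors prefer in binding assays, was present in 1 of the 20, that of the noncoding gene Gm11961, and 0 of the 18, against 3.91% of all windows. The CRX and OTX2 core TAATCC, common near photoreceptor and bipolar genes, was present in 5 of the 20 and 1 of the 18, against 7.06%. A window that lacks a motif says nothing on more distant sites.

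One promoter stretch of bipolar, synaptic and noncoding genes that rose is shown for each motif, 150 bases free of annotated exons and written 5′ to 3′ on the strand of the gene. Capitals mark TAATCC in Cabp5 (chr7:13397982-13398131, plus strand), every CANNTG in Cplx3 (chr9:57606282-57606431, minus strand) and CATATG in Gm11961 (chr11:4627767-4627916, minus strand).
Cabp5: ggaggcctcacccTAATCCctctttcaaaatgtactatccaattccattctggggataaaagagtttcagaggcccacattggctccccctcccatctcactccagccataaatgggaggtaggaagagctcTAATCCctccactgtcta
Cplx3: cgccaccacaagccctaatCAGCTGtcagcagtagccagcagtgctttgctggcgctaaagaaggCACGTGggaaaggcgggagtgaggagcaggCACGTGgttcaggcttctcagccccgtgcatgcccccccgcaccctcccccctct
Gm11961: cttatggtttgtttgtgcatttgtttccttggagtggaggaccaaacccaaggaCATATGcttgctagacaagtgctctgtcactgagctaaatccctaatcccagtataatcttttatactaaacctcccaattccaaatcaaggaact

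Rod genes were higher with Olig3 in count, and unevenly over the libraries. Slc24a1 (chr9:64922861-64951607), the rod exchanger that clears calcium from the outer segment, rose from 420.4, 584 and 552 to 1249, 1404 and 1215 CPM, 2.49-fold (log2 change 1.31 ± 0.22 SE, edgeR adjusted p = 0.0363). Rdh12 (chr12:79208914-79222665), a retinol dehydrogenase of photoreceptors, rose from 217, 321 and 304 to 638, 654 and 653 CPM with nearly equal Olig3 libraries. Of 18 rod genes on the list, 1 was called, 15 were higher at an unadjusted p below 0.05, 9 had no overlap upward, and the median was 1.14. The rod median was 0.69 without Olig3 replicate 2 and 1.75 with replicate 2 as the only Olig3 library.

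Cone genes had the highest median of the lists with at least 10 tested members, 2.17, although no member passed the test. Of 14 tested, 12 were higher at an unadjusted p below 0.05 and 11 had no overlap upward. Arr3, the cone arrestin, stood at 62.7, 153 and 55.02 CPM with GFP and 685, 502 and 1173 CPM with Olig3 (log2 difference 3.12 ± 0.63 SE, edgeR adjusted p = 0.0799). Pde6c, the cone phosphodiesterase, stood at 39.4, 40.9 and 37.6 CPM and 317, 77.04 and 251 CPM (edgeR adjusted p = 0.0742). Both were above every GFP library, and lowest in Olig3 replicate 2, the Olig3 library with the highest rod share. Gnb3, a transducin subunit of cones that ON bipolar cells also make, lay lower without overlap, at 1695, 1881 and 1584 CPM against 1295, 1419 and 1160.1 CPM. The summed level of the cone list was 3215, 3803 and 2514 CPM with GFP and 7159, 8355 and 9102 CPM with Olig3, 2.58-fold apart without overlap. The median stayed between 1.79 and 2.31 when any library was left out.

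Amacrine and horizontal cells are the inhibitory interneurons of the retina. The 15 amacrine cell genes had a median of 0.06, with Slc6a9, the glycine transporter of amacrine cells, at 19.8, 35.5 and 31.6 CPM and 92.02, 60.8 and 197 CPM (edgeR adjusted p = 0.148). The amacrine median was between -0.49 and 0.31 as single libraries were left out, so it had no steady sign. For horizontal cells the median was -2.44, -6.15 without Olig3 replicate 2 and -1.41 with that replicate as the only Olig3 library, and 4 of 10 genes were lower at an unadjusted p below 0.05. The GFP libraries were uneven here. Calb1, a calcium buffer of horizontal cells, stood at 773, 1816 and 50.5 CPM with GFP and 71.7, 225 and 42.4 CPM with Olig3. Among 31 receptors for glutamate, GABA and glycine, 6 were higher at an unadjusted p below 0.05 and 0 lower, Grm6 being the one called. Gabrr1, a GABA receptor subunit of bipolar terminals, stood at 17.5, 29.6 and 16.9 CPM and 56.04, 41.02 and 94.5 CPM (edgeR adjusted p = 0.184). Kcnv2, a potassium channel subunit of photoreceptors, stood at 78.9, 106 and 91.4 CPM and 299.7, 131 and 186 CPM (edgeR adjusted p = 0.184).

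The smallest adjusted p of the genes that rose belonged to Ip6k2 (chr9:108783796-108806337), a kinase that makes inositol pyrophosphates. It stood at 93.5, 89.9 and 93.7 CPM in the GFP libraries, nearly constant, and 344, 311 and 232 CPM in the Olig3 libraries, 3.203-fold higher (log2 change 1.68 ± 0.21 SE, edgeR adjusted p = 0.0319). It was the only gene called of 14 tested genes of inositol phosphate kinases, whose median was -0.12. Gsg1 (chr6:135237326-135254351) rose from 36.96, 27.8 and 33.6 to 194, 113 and 288 CPM, 6.05-fold. Sphkap, an anchoring protein of protein kinase A, rose from 73.6, 80.6 and 45.9 to 299, 165 and 316 CPM.

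Mylk, myosin light chain kinase, rose from 15.7, 20.6 and 28.1 to 101, 69.03 and 82.9 CPM, and the antisense gene E130310I04Rik, whose exons overlap it, from 11.4, 14.7 and 9.91 to 76.5, 48.5 and 58.7 CPM. With no strand setting given, the reads of Mylk and E130310I04Rik cannot be told apart. Other noncoding genes that rose were AI847159, from 101, 120.1 and 139.9 to 478, 566 and 310.3 CPM, A930036K24Rik, from 31.9, 69.4 and 35.5 to 146, 158 and 203 CPM, and Gm11961, from 6.88, 10.2 and 5.09 to 74.6, 42.8 and 59.3 CPM. Gm11961 had the largest log2 change of the genes that rose, 2.99 ± 0.46 SE (edgeR adjusted p = 0.0363).

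Genes of antigen presentation by major histocompatibility complex (MHC) class I were lower with Olig3. H2-D1 (chr17:35262730-35267499), a class I heavy chain, stood at 1043, 886 and 1090.2 CPM with GFP and 180.1, 281 and 284 CPM with Olig3, 4.05-fold lower (log2 change -2.02 ± 0.26 SE, edgeR adjusted p = 0.0319). The heavy chain genes resemble each other closely, and how shared reads were counted among them is unstated. B2m, the light chain, stood at 114, 69.7 and 130.4 CPM and 40.3, 49.8 and 41.2 CPM (log2 difference -1.26, edgeR adjusted p = 0.111), and Psmb9, a subunit of the immunoproteasome, at 29.9, 41.9 and 28.7 CPM and 4.72, 4.75 and 11.3 CPM (edgeR adjusted p = 0.108). Of 20 genes of class I and peptide loading, 13 were lower at an unadjusted p below 0.05, 14 had no overlap downward and 0 was higher. Their median was -1.34, between -1.70 and -1.18 when any library was left out. Their summed level was 2382, 1921 and 2541 CPM with GFP and 874, 822 and 739 CPM with Olig3.

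Interferon response genes were lower as well. Irf7 (chr7:141262706-141266481), the interferon regulatory factor that amplifies the response, fell from 178, 147 and 168 to 56.2, 30.5 and 50.5 CPM, 3.59-fold (log2 change -1.84 ± 0.29 SE, edgeR adjusted p = 0.0363). Of 35 tested, 16 were lower at an unadjusted p below 0.05, none was higher, and 17 had no overlap downward. Irgm1, an interferon-induced GTPase, stood at 192, 111 and 267 CPM with GFP and 2.21, 21.01 and 0.880 CPM with Olig3 (edgeR adjusted p = 0.0656). Irf9, which carries the interferon signal to DNA, stood at 113, 84.4 and 227 CPM and 51.3, 32.8 and 42.98 CPM (edgeR adjusted p = 0.0839). The list median was -1.74, -1.64 with Olig3 replicate 2 as the only Olig3 library and -1.90 with the 3 Malat1-rich libraries left out.

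Tgtp1 (chr11:48985327-48994172) and Tgtp2 (chr11:49057194-49064206) encode near-identical GTPases induced by interferon. Tgtp1 had 78, 205 and 59 counts with GFP and 0, 1 and 0 with Olig3. Tgtp2 had 17, 58 and 115 counts with GFP and 1, 0 and 0 with Olig3. The ratio of pooled counts, GFP over Olig3 and scaled for library size, was 316 for Tgtp1 (95% interval 56.4 to 12527) and 176 for Tgtp2 (95% interval 31.2 to 6975). These intervals, like all those from counts here, cover counting error only, since amplified reads without molecular identifiers are not independent molecules. Both passed (edgeR adjusted p = 0.0363 for each). How reads matching both genes were assigned is unstated. The mean GFP level of Tgtp1 and Tgtp2 lay in the range where Olig3 replicates 1 and 3 lost 17.2% and 22.3% of genes. In replicate 2, which lost 0.947%, they had 1 count and 0. The part of missed genes in the differences of Tgtp1 and Tgtp2 was not tested.

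The interferon regulatory factor repeat, GAAA and GAAA with any 2 bases between them, was found in the windows of Tgtp1 and Tgtp2 and of no other gene that fell among the 15 searched, and in those of 2 that rose, Mylk and AI847159. That is 2 of the 18 and 2 of the 20 windows, against 3.44% of all windows. Capitals mark it in Tgtp1 (chr11:48992259-48992408, minus strand) and Tgtp2 (chr11:49064213-49064362, minus strand), cut as above.
Tgtp1: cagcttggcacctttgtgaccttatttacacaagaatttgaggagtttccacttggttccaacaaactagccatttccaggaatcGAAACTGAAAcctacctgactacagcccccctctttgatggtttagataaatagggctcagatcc
Tgtp2: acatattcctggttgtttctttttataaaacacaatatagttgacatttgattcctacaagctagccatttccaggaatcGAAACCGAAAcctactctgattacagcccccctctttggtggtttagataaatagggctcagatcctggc

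T cell genes were lower too, at low levels. The 15 genes summed to 37.4, 73.8 and 60.6 CPM with GFP and 5.604, 22.01 and 8.802 CPM with Olig3. The 2 groups did not overlap in this sum, which includes Thy1, also a ganglion cell marker and the bead target. Thy1 stood at 27.8, 8.63 and 12.5 CPM with GFP and 2.36, 8.25 and 0 CPM with Olig3. Without Thy1 the sum of GFP replicate 1 lies below that of Olig3 replicate 2, so the groups overlap. Of these 15 genes, 12, 3 and 3 were at 0 counts in the GFP libraries and 11, 12 and 14 in the Olig3 libraries. The 12 that were tested had a median of -5.59, or -3.12 with genes at 0 set to the floor of 3 counts, and -3.35 without GFP replicate 2. Cd3g, part of the T cell receptor complex, stood at 0, 4.95 and 6.29 CPM with GFP and had no counts with Olig3. The 20 genes of microglia and macrophages summed to 109.5, 1108 and 494 CPM and 137, 494 and 188 CPM, which overlap, and had a median of 0.30, with 1 higher and 3 lower by unadjusted p below 0.05. That median had no steady sign, at -0.64 without Olig3 replicate 2 and 0.85 without GFP replicate 2. The member lowest in log2 difference (-6.20), Cd74, the chaperone of MHC class II, stood at 25.4, 328 and 189 CPM and 5.01, 2.25 and 0 CPM (edgeR adjusted p = 0.0591). GFP replicate 1 had the lowest sums of both lists among the GFP libraries, and its H2-D1 level, 1043 CPM, lay between those of the other 2. The part of immune cells in the interferon and class I results was not tested.

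Against Olig2, the other factor delivered in the series, the class I and GTPase genes were lower with Olig3 as well. H2-D1 stood at 1002, 1120.1 and 1516 CPM in the Olig2 libraries, a log2 difference of -2.29 ± 0.26 SE between Olig3 and Olig2 (edgeR adjusted p = 0.0132). B2m stood at 244, 151 and 209.6 CPM, above every GFP library, and differed by -2.21 (edgeR adjusted p = 0.0270). Tgtp1 stood at 84.3, 30.5 and 12.7 CPM and Tgtp2 at 76.05, 44.8 and 32.3 CPM with Olig2 (edgeR adjusted p = 0.0365 and 0.0132 against Olig3). Over all genes 6 passed between Olig3 and Olig2 (0.0384% of the 15609), all lower with Olig3. The others were Igkc, an immunoglobulin light chain, and Slpi, a protease inhibitor. The Olig2 libraries were rich in B and plasma cell genes, 16 genes that summed to 23723, 5403 and 9090 CPM there. The sums were 229, 137 and 148 CPM with Olig3 and 133, 256 and 150 CPM with GFP. The part of immune cells in the difference between Olig3 and Olig2 was not tested. Of the 32 genes called against GFP, only H2-D1, Tgtp1 and Tgtp2 were among the 6. None of the 32 passed against Olig2 without the 3 libraries richest in Malat1, or with Olig3 replicate 2 as the only Olig3 library, and leaving out Olig2 replicate 1, Olig3 replicate 1 or Olig3 replicate 3 left 1.

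Irf7 did not pass between Olig3 and Olig2, with 25.97, 37.2 and 24.9 CPM in the Olig2 libraries, all below the GFP libraries (edgeR adjusted p = 0.933). The bipolar and rod genes did not pass either. Pcp2 stood at 300.5, 302 and 224 CPM with Olig2, Grm6 at 86.03, 53.6 and 52.03 CPM and Slc24a1 at 894, 1097 and 1094 CPM. Arr3 stood at 47.4, 289 and 249 CPM with Olig2, where replicate 1 was below all 3 GFP libraries and replicates 2 and 3 above them, and it did not pass between the factors (edgeR adjusted p = 0.865). Both factors were compared with the same GFP libraries.

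**Figure D3:**
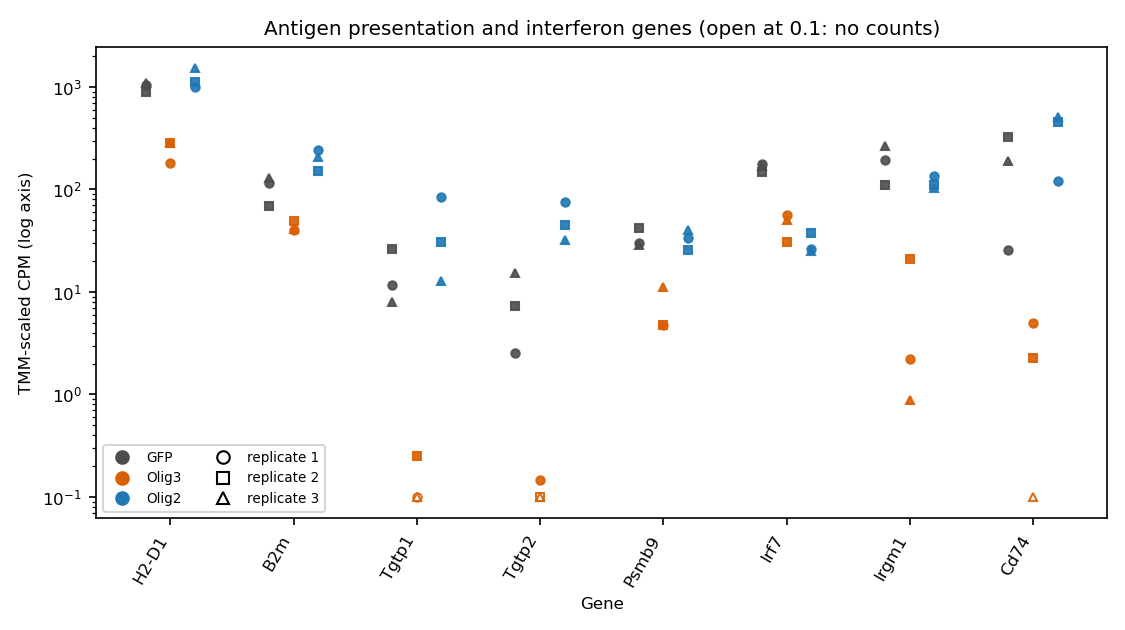
TMM-scaled CPM (log axis) of 8 antigen presentation and interferon genes in all 9 libraries, 1 point per library. H2-D1, B2m, Tgtp1 and Tgtp2 are lower in the 3 Olig3 libraries than in the GFP and Olig2 libraries, whereas Irf7 is low in both Olig3 and Olig2 libraries.

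Immediate early genes and AP-1 factors, the first transcription factors that injury or handling switches on, were lower with Olig3. Junb (chr8:84974484-84978718), an AP-1 subunit, fell from 204, 239 and 286 to 51.8, 73.03 and 42.7 CPM, 4.36-fold (log2 change -2.13 ± 0.28 SE, edgeR adjusted p = 0.0319). Its exons overlap those of Prdx2 on the opposite strand, which did not follow (log2 difference -0.03). Fos stood at 60.5, 76.9 and 159 CPM with GFP and 15.9, 15.5 and 28.02 CPM with Olig3 (edgeR adjusted p = 0.0839), and Atf3, an injury-induced partner of AP-1, at 145, 94.7 and 209.9 CPM and 1.77, 29.3 and 28.6 CPM (edgeR adjusted p = 0.145). Jund stood at 421, 448 and 339 CPM and 337, 338 and 140.4 CPM (edgeR adjusted p = 0.496). Of 14 tested, 7 were lower at an unadjusted p below 0.05, 8 had no overlap downward, and 0 was higher. The median of -2.07 became -0.77 with Olig3 replicate 2 as the only Olig3 library and -3.87 without it.

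Genes linked to axon regeneration were lower as a list. Of 28 injury-induced regeneration-associated genes tested, 2 were called, 17 were lower, with 0 higher, at an unadjusted p below 0.05, and 15 had no overlap downward. The median was -2.05, -2.05 with genes at 0 set to the floor, and -1.71 with Olig3 replicate 2 as the only Olig3 library. Ecel1 (chr1:87147655-87156521), a neuronal endopeptidase induced by nerve injury, had 167, 115 and 245 counts with GFP and none with Olig3, which was at least 162-fold lower when 3 counts over the group are taken as the floor (edgeR adjusted p = 0.0363). Its absence included Olig3 replicate 2, where 0.0689% of genes at 20 to 100 CPM were at 0. The part of missed genes in the absence of Ecel1 was not tested. Fgf2 (chr3:37348346-37410108), a growth factor for neurons and glia, fell from 126, 159.7 and 234 to 40.7, 41.3 and 31.8 CPM, 4.56-fold. Fgf2 overlaps Nudt6 on the opposite strand, and Nudt6 had a log2 difference of -2.46, so reads of one may have counted for the other.

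Gap43, the growth cone protein, stood at 349, 72.2 and 297 CPM with GFP and 0.442, 27.5 and 0 CPM with Olig3 (edgeR adjusted p = 0.193). Tubb3, the neuronal tubulin, stood at 119, 91.5 and 72.4 CPM and 37.02, 26.01 and 34.9 CPM (edgeR adjusted p = 0.0799). Both are also ganglion cell markers. Of the 18 ganglion markers tested, 6 were lower at an unadjusted p below 0.05, 12 had no overlap downward, and the median was -2.13. Nefm, a neurofilament, stood at 567, 197 and 252 CPM and 69.6, 119.6 and 8.802 CPM (edgeR adjusted p = 0.305). With Olig3 replicate 2 as the only Olig3 library the median was -1.21. Isl1, a homeobox factor that ON bipolar cells share with ganglion cells, lay higher without overlap, at 35.8, 35.04 and 31.2 CPM against 57.2, 60.03 and 94.9 CPM (edgeR adjusted p = 0.183). The lists of regeneration-associated genes and ganglion markers share members and were both lower in sum, and the part of the one in the other was not tested.

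Cytokine signalling genes, which help injured ganglion cells regrow, had fewer members that differed. Socs1, the feedback inhibitor of cytokine receptors, stood at 10.03, 2.41 and 15.5 CPM with GFP and had no counts with Olig3, at least 62.3-fold lower by the same floor (edgeR adjusted p = 0.0858). Stat3 stood at 211, 248 and 198 CPM with GFP and 138, 81.3 and 52.8 CPM with Olig3, and Il6st, the shared receptor of that cytokine family, at 54.5, 60.9 and 48.7 CPM and 24.04, 31.3 and 25.97 CPM (edgeR adjusted p = 0.145 and 0.268). None of the 18 tested genes of this pathway was called, 5 were lower at an unadjusted p below 0.05, 7 had no overlap downward, and the median was -0.93. It was -0.24 with Olig3 replicate 2 as the only Olig3 library. Of 43 genes of the axonal cytoskeleton, 14 were lower and 1 higher at an unadjusted p below 0.05, with a median of -0.54, which was -0.33 without GFP replicate 1 and -0.30 with Olig3 replicate 2 as the only Olig3 library. Map1b, a microtubule protein, overlapped at 3378, 2676 and 2943 CPM and 2594, 2929 and 2108 CPM.

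**Figure D4:**
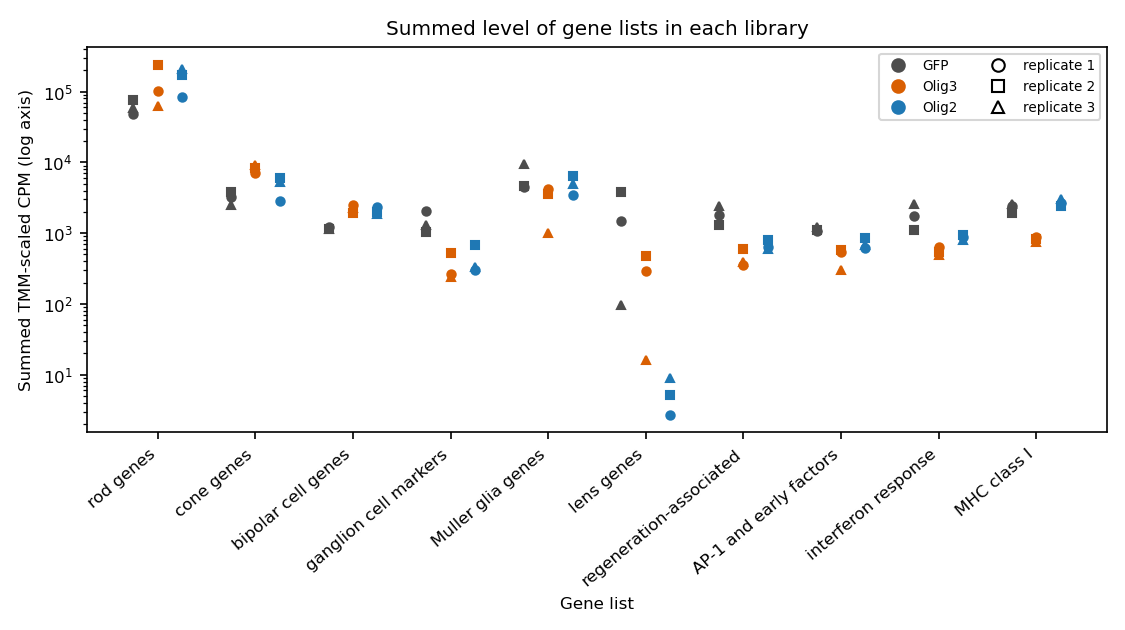
Summed TMM-scaled CPM (log axis) of 10 gene lists in each of the 9 libraries, by group and replicate. Cone and bipolar sums lie above the GFP libraries in every Olig3 library, rod sums overlap, and ganglion, regeneration-associated, AP-1, interferon and class I sums lie below.

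Müller cell genes were lower in part. Vim (chr2:13573927-13582826), the intermediate filament of Müller cells, fell from 202, 294 and 545 to 32.7, 69.03 and 30.1 CPM, 7.899-fold (log2 change -2.99 ± 0.45 SE, edgeR adjusted p = 0.0363). It was the only called gene of 18 Müller genes, of which 5 were lower at an unadjusted p below 0.05 and the median was -0.83, -1.33 without Olig3 replicate 1 and -0.43 without Olig3 replicate 3. Clu, a secreted chaperone, stood at 1627, 1190.5 and 2844 CPM and 1466, 1435 and 319 CPM, where only Olig3 replicate 3 was below all GFP libraries. Crym, a thyroid hormone binding protein, stood at 506, 549 and 2371 CPM and 75.9, 96.8 and 9.39 CPM (edgeR adjusted p = 0.0698). Of 6 tested genes on the astrocyte list, 2 were lower and 1 higher at an unadjusted p below 0.05. Their median was -1.26, and the sums of the list overlapped. Gfap, which reactive glia raise, stood at 125, 78.6 and 129 CPM and 0, 27.3 and 0 CPM (edgeR adjusted p = 0.329). Slc1a2, a glutamate transporter and the list member that was higher, had no overlap, at 136, 124 and 134 CPM and 315, 177 and 270.2 CPM (edgeR adjusted p = 0.145). Edn2 (chr4:120161206-120167360), the endothelin that stressed photoreceptors release, fell from 200.2, 260.5 and 252 to 9.29, 55.8 and 22.7 CPM, 8.12-fold (edgeR adjusted p = 0.0363).

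Lens genes were uneven over the libraries. They summed to 1487, 3764 and 97.6 CPM with GFP and 292, 478 and 16.3 CPM with Olig3. Their median was -3.45, -2.17 without GFP replicate 2, and the groups overlapped. Cell cycle genes were likewise uneven, with a median of -2.01 over 27 tested and 9 lower at an unadjusted p below 0.05. Top2a, a marker of dividing cells, stood at 1.796, 12.2 and 177 CPM with GFP and 0.147, 5.75 and 0 CPM with Olig3, so GFP replicate 3 alone was high. The cell cycle median was -3.37 without Olig3 replicate 2 and -0.68 without GFP replicate 3.

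Other genes that fell code for trafficking and signalling proteins found in many cell types. Cd63 (chr10:128900989-128912822), a tetraspanin of late endosomes, fell from 447, 438 and 859 to 165, 139.8 and 121 CPM, 4.101-fold (log2 change -2.04 ± 0.29 SE, edgeR adjusted p = 0.0363). It was the only gene called of 22 tetraspanins, with 6 lower at an unadjusted p below 0.05. Rom1, a tetraspanin of photoreceptor discs, lay in the other direction, at 1534, 2567 and 1551 CPM and 4508, 6011 and 2277 CPM. Ywhah, the eta form of the 14-3-3 adaptor proteins, fell from 824, 539 and 536 to 127, 240.4 and 179 CPM. Of the other 5 tested 14-3-3 genes Ywhag stood at 189, 143 and 95.5 CPM and 67.1, 82.8 and 93.2 CPM, and Ywhae at 1121, 1165 and 1134 CPM and 1018, 1028 and 809.8 CPM.

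Arhgdia, an inhibitor of small GTPases, fell from 111, 143 and 130.3 to 48.5, 47.5 and 30.7 CPM. Clic1, a chloride channel protein, fell from 112, 60.2 and 160.3 to 17.8, 21.01 and 8.36 CPM, 7.03-fold. Rnh1, the ribonuclease inhibitor, fell from 190.4, 158 and 209.7 to 66.95, 72.5 and 43.7 CPM. The remaining genes that fell were Lrrc2, from 449, 578 and 681 to 191, 148 and 81.7 CPM, Ankrd29, from 59.7, 82.3 and 76.7 to 18.3, 20.8 and 11.6 CPM, and ENSMUSG00000095041, which lies on an unplaced scaffold, from 141, 143 and 114 to 53.4, 28.01 and 40.2 CPM. In Arhgdia, Clic1, Rnh1, Lrrc2 and Ankrd29 Olig3 replicate 3 was the lowest library, as it was in Junb, Cd63, Vim and Fgf2. Rnh1 and Ankrd29 were named after their values were seen, to complete the 17.

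Genes of injury signalling and survival were split in direction. The 21 tested genes of DLK, JNK and SARM1 signalling, which carry the axon injury signal, had a median of 0.13. Map3k12, which encodes DLK itself, stood at 157, 150.04 and 172 CPM and 332, 285 and 316 CPM (edgeR adjusted p = 0.0858). BCL2 family and caspase genes, 25 tested, had a median of -0.63, which was -0.30, -0.25 and -0.11 without GFP replicate 1, GFP replicate 2 or Olig3 replicate 3, and 4 were lower and 2 higher at an unadjusted p below 0.05. Xiap, a caspase inhibitor and one of those higher, stood at 129.7, 132 and 139.8 CPM with GFP and 378, 278 and 274 CPM with Olig3, without overlap (edgeR adjusted p = 0.0858).

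Several lists of stress and metabolism had medians near that of all genes. The integrated stress response had a median of -0.20 and heat shock chaperones -0.12, with no gene called in either. Eif2ak2, the stress kinase that interferon induces, stood at 53.4, 13.5 and 58.5 CPM with GFP and 6.34, 6.503 and 2.64 CPM with Olig3 (edgeR adjusted p = 0.110). Nuclear genes of oxidative phosphorylation, 75 tested, had a median of 0.25, glycolysis 0.12 and cytosolic ribosomal proteins, 78 tested, -0.14. Mitochondrially encoded respiratory genes lay further off, with a median of 0.63, 3 of 10 higher and none lower by unadjusted p below 0.05. That median was 0.04 without Olig3 replicate 2. The nuclear median was -0.04 and the ribosomal -0.38 without the same library. Chromatin regulators had a median of 0.35, with 5 of 29 higher and none lower at an unadjusted p below 0.05. Among them Kdm5b, a histone demethylase, stood at 131, 166 and 146 CPM and 259, 223 and 211 CPM.

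**Figure D5:**
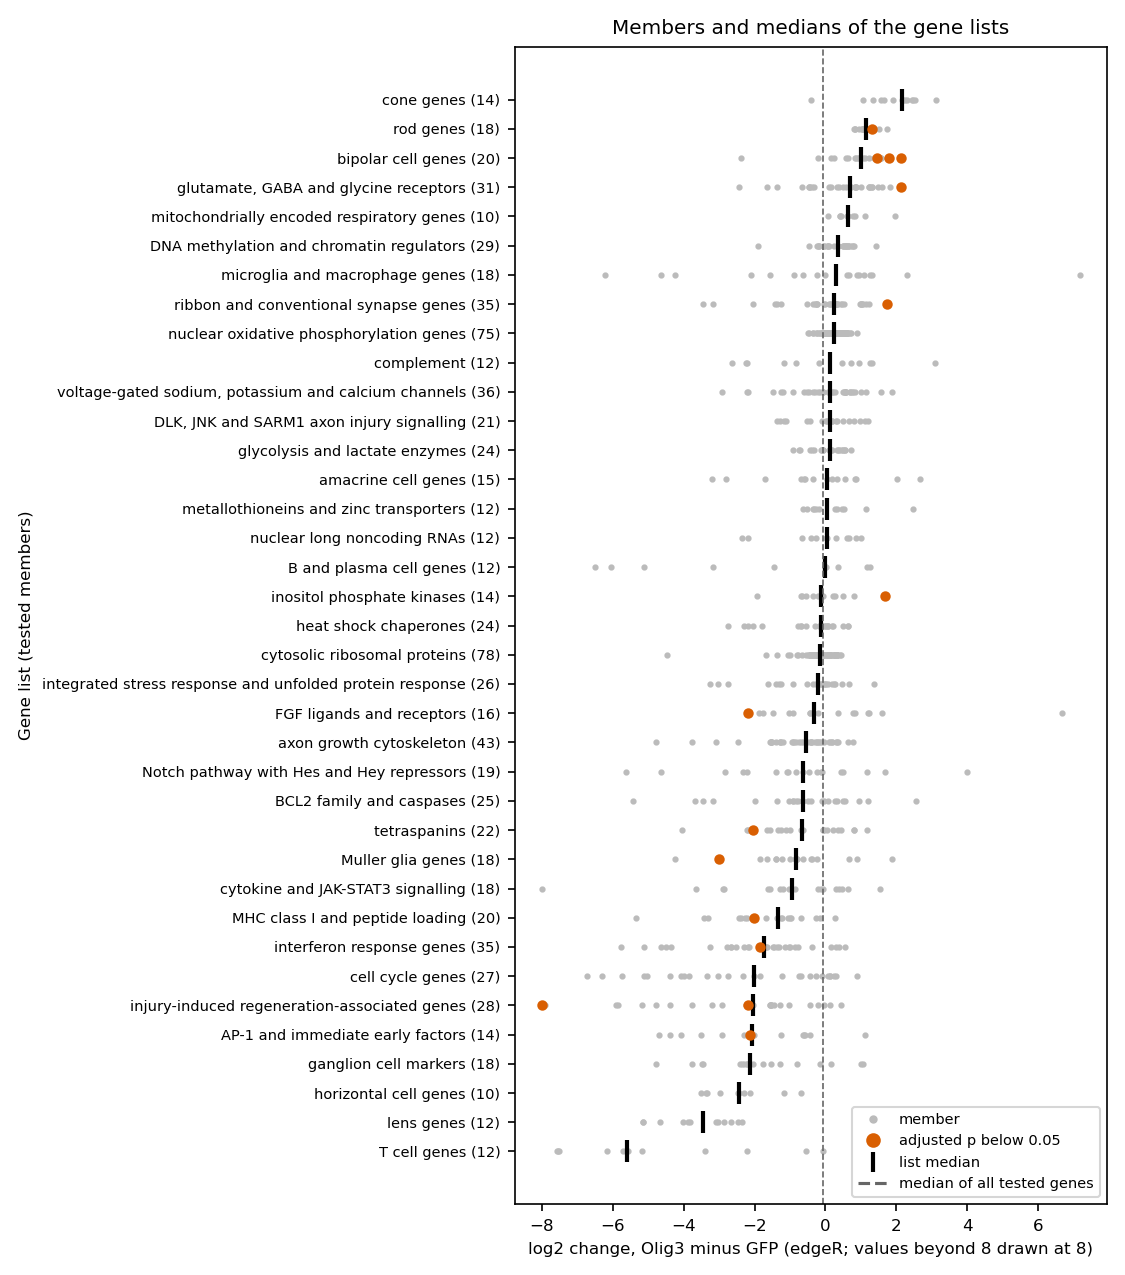
log2 difference (Olig3 minus GFP, edgeR) of every tested member of the lists shown, each with at least 10 tested genes; black bars are list medians, filled points are genes at an adjusted p below 0.05, and the dashed line is the median of all genes at -0.06. Cone, rod and bipolar lists lie to the right and ganglion, AP-1, regeneration-associated, interferon and class I lists to the left.

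Basic helix-loop-helix factors act with E proteins and are held back by Id proteins and the Notch pathway. None of 8 tested proneural and retinal factors of that family was called. Bhlhe23, a factor of rod bipolar cells, stood at 4.79, 13.96 and 11.9 CPM and 31.9, 34.02 and 25.8 CPM, and Neurod4, which acts in early retinal neurons, overlapped at 182, 161 and 84.6 CPM and 351, 172 and 439.8 CPM. Id3, an inhibitor of E proteins, stood at 33.8, 53.6 and 74.7 CPM with GFP and 14.5, 8.004 and 10.7 CPM with Olig3 (edgeR adjusted p = 0.105). Of 19 genes of the Notch pathway none was called, 2 were lower and 1 was higher by unadjusted p below 0.05, and 3 had no overlap downward. Their median was -0.62, -0.97 without Olig3 replicate 2, -0.26 without Olig3 replicate 3 and -0.40 without GFP replicate 3. Maml2, a Notch coactivator, stood at 14.8, 1.52 and 7.23 CPM with GFP and 0, 0.500 and 0 CPM with Olig3, and Nrarp, a Notch feedback inhibitor, at 5.09, 5.84 and 18.5 CPM and 0, 1.25 and 0 CPM (edgeR adjusted p = 0.262 and 0.331). Mfng, which glycosylates Notch, stood at 1.197, 0 and 3.75 CPM and 52.1, 5.75 and 22.2 CPM (edgeR adjusted p = 0.261). SOX factors had a median of -1.57, -0.98 with Olig3 replicate 2 as the only Olig3 library, with Sox9, a Müller cell factor, at 38.2, 33.6 and 76.2 CPM and 19.6, 16.8 and 19.95 CPM.

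Oligodendrocyte genes were almost absent. Only 4 of 20 lineage genes passed the filter on low counts, and none of those was below 0.05 at an unadjusted p. Sox10, Nkx2-2, Mobp, Cldn11, Opalin and Gpr17 had 0 counts in all 6 libraries. Cnp, which other cells also make, overlapped at 86.8, 118 and 106 CPM and 84.8, 96.8 and 51.9 CPM.

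Some genes were counted in every library of one group and in none of the other. Of 50764 genes, 142 were such genes present with GFP and 37 were present with Olig3. Among 4552 genes at 1 to 5 CPM in GFP, 50.9% and 57.1% had 0 counts in Olig3 replicates 1 and 3. The shares were 15.1% in Olig3 replicate 2 and 18.1% to 21.6% in the GFP libraries. The part of missed genes in these counts was not tested. The genes of highest mean CPM among those present with GFP were Ecel1, Hmmr, Trim15, Gm47283 and A830012C17Rik. Hmmr, a spindle protein of dividing cells, stood at 6.73, 2.54 and 52.2 CPM, at least 140.2-fold higher than with Olig3. Most of that came from GFP replicate 3, with 390 counts against 45 and 20 in GFP replicates 1 and 2. Hmmr also had 0 counts in every Olig2 library. Trim15 stood at 14.7, 9.52 and 15.7 CPM with GFP, at least 89.4-fold higher than with Olig3. Apart from Ecel1 none of these 5 passed. In the other direction the 5 of highest mean were Gpr183, a chemotactic receptor, at 0.147, 2.75 and 12.9 CPM with Olig3 (edgeR adjusted p = 0.213), Alox8, Gm36372, Spink13 and Zfp429, the last 4 too low to be tested.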

How the data were processed

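RNA was measured in 9 libraries of hand-picked cells, 3 per group, grouped by the labels. The authors deposited a table of raw read counts per gene. Per the submitters' processing notes, FastQC, HISAT2 and HTSeq were used with build mm10. Tool versions, any filter and the use of strand were not given in the sources used here. Of 50764 genes, 29429 had counts and 15609 passed filterByExpr. Rows without a gene symbol held at most 0.0165% of counts. Counts were scaled by TMM and tested with edgeR 4.0.16 (quasi-likelihood F test, R 4.3.3) over all 9 libraries, which share one estimate of spread with 6 residual degrees of freedom, and p-values were adjusted by Benjamini-Hochberg. The fit was tested on simulated data. Alternatives included DESeq2 1.42.0 and limma 3.58.1. Total counts were 5355691 to 6979851 per GFP or Olig3 library, and a library's floor of 3 counts was 0.430 to 0.560 CPM. Replicates of a group differed beyond sampling noise, and more so with Olig3. Chi-square per degree of freedom between 2 replicates was 33.6 to 41.6 within GFP and 76.6 to 113 within Olig3. Correlations of log CPM were 0.807 to 0.835 within GFP and 0.724 to 0.806 within Olig3. Between a GFP and an Olig3 library they were 0.697 to 0.869, so the highest lay above every correlation within either group.

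The members, gene lists and tests were chosen with earlier results of these data known. Named genes were Olig1, Olig2 and Olig3, up to 15 called genes per direction by p, in each list up to 3 tested members of smallest p and that of highest mean CPM, and up to 5 genes per direction counted in one group only. Gene positions are GENCODE M21 and promoter windows RefSeq, both on mm10. Same-numbered GFP and Olig3 libraries did not deviate together. Some genes and lists are not reported here.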

Additional observations from a re-analysis of the deposited data

How the results depend on the processing

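Against main counts of 15 genes higher and 17 lower with Olig3 than with GFP, an adjusted p below 0.1 gave 40 and 47, DESeq2 212 and 281, and no filter on low counts 194 and 362. limma-voom with sample weights gave 4 and 3, and leaving out the 3 libraries richest in Malat1, an alternative chosen after seeing the data, gave 5 and 15. The edgeR fit of the GFP and Olig3 libraries alone gave 0 and 0 (565 and 565 at an unadjusted p below 0.05), and that without the 2 Olig3 libraries with few detected genes 0 and 0 (549 and 462). The lone Olig3 library of that fit is assumed to vary like the other groups. With single libraries left out the counts ran from 0 to 106 higher and from 0 to 399 lower, and in 7 and 8 of the 9 omissions they were 0. A stricter filter, other scaling factors and leaving out rod genes, also added after seeing the data, gave 12 to 19 and 15 to 23. The cause of these shifts was not tested.

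With the replicate number as a block, edgeR called 0 and 0 genes (774 and 951 at an unadjusted p below 0.05). The labels do not say that a number pairs libraries. Deviations of same-numbered GFP and Olig3 libraries correlated at -0.0116, 0.00504 and -0.00389, and 1 of 3 Olig3 libraries correlated best with its own number.

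Of the 32 called genes, 3 also passed against Olig2. This was 6 with DESeq2, 7 with no filter and 1 with limma-voom. It was 0 without the 2 Olig3 libraries with few detected genes, 0 without the 3 libraries richest in Malat1, and 1 to 5 with single libraries left out. The difference in genes with at least 10 counts ran from -2958 to -2138 with single libraries left out. Of 671 values of called genes under alternatives, 407 no longer passed and 0 reversed.

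Total counts were similar, but 17.2% and 22.3% of genes at 5 to 20 CPM in GFP had 0 counts in Olig3 replicates 1 and 3. Differences of such genes are therefore the least certain. With 3 libraries a group, an exact test cannot go below p = 0.1. The number of cells per library and their origin are not resolved by the labels.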
